A study of Mus musculus with 27 samples.

Results

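Mouse PGK12.1 cells, an embryonic stem (ES) cell line, were transfected with small interfering RNA (siRNA) labelled NSL1, and their RNA was compared with RNA of control cells on Affymetrix mouse gene arrays. Arrays were taken by their titles: the 3 arrays titled NSL1 RNAi with the letters C, D and E, against the 3 PGK12.1 control arrays with the same letters. These were 6 of the 27 arrays of the series. A gene was measured when a probeset with a single gene symbol had a mean log2 value of at least 6 over the 6 arrays, and its probeset with the highest mean was used. This held for 13008 of the 19946 genes with such a probeset. The measured gene nearest to that limit was Dscaml1 (mean 6.0004) and the nearest gene left out was 4930412M03Rik (mean 5.9998).

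The series profiled undifferentiated ES cells after knockdown of proteins that work with MOF (gene symbol Kat8), the acetyltransferase of lysine 16 on histone H4. PGK12.1 is a female line derived from a 129 mother and a father of the (129 x PGK)F1 cross, used at passages 14 to 18. Cells grew with LIF on embryonic fibroblast feeders, and the feeders were depleted on gelatin. For the NSL1 arrays cells received 100 pmol of siRNA for 48 h, and the controls received as much of a negative control siRNA for the same time. The labels number the letters C, D and E as separate experiments 6, 7 and 8, so each letter gave 1 NSL1 array and 1 control array treated together. A single line and 1 time point were profiled. The p-values rest on the spread between these 3 experiments together with a spread shared across probesets.

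The non-specific lethal (NSL) complex is one of the assemblies that carry MOF; the other is the male-specific lethal (MSL) complex. KANSL1 is the scaffold of the NSL complex and holds MOF together with WDR5, HCFC1, OGT, MCRS1, PHF20, KANSL2 and KANSL3. The complex binds promoters of broadly expressed genes, and in mammalian ES cells it has been found at many housekeeping gene promoters.

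Array medians were 6.77 to 6.81 in the C experiment and 6.39 to 6.44 in D and E, so levels of C arrays are not on the scale of the others. The comparison was therefore made within letters: limma was fitted with the letter as a block, and changes are given as log2 of NSL1 minus log2 of control. The 5 ES cell markers Pou5f1, Sox2, Nanog, Zfp42 and Esrrb had a mean log2 value of 11.90 to 11.99 in the control arrays and 11.86 to 11.91 in the NSL1 arrays, and none of them was called. The 10 fibroblast markers, of which 5 passed the limit, had a mean of 5.59 to 6.21 in the controls and 5.63 to 6.30 in the NSL1 arrays. Among the 5 that passed, Thy1 fell by 0.26 (SE 0.06, limma adjusted p = 0.0184), a call lost without D (adjusted p = 0.078) and without E (0.0556). Below the limit and so not tested, Dcn differed by 0.25, 0.31 and 0.34 in C, D and E, Lum by 0.18, 0.20 and 0.15 and Thbs2 by 0.15, 0.05 and 0.30. The part of fibroblast RNA in the results was not tested.

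The label NSL1 could stand for Kansl1 or for Nsl1, a kinetochore gene, and the labels do not say which. The series is one of proteins that work with MOF, as the product of Kansl1 does. The probeset of Kansl1 with the higher level (10391990) read 10.06, 9.99 and 9.95 in controls C, D and E, and 9.75, 9.68 and 9.84 in the matching NSL1 arrays. The groups did not overlap, and the fall was smallest in E. It fell by 0.24 (SE 0.06, 95% confidence interval -0.39 to -0.095, limma adjusted p = 0.025), to 84.5% of the control level. The adjusted p was 0.0577 without C, 0.163 without D and 0.104 without the letter as a block. A second Kansl1 probeset (10392010), which the platform's annotation ties to cloned transcripts only, went from 8.13, 8.30 and 8.08 to 8.50, 8.71 and 8.83. It rose by 0.51 (SE 0.08, adjusted p = 0.00647), so the Kansl1 probesets moved in opposite directions, and their average stood at 0.133 (adjusted p = 0.176). Nsl1 read 8.83, 8.59 and 8.78 in the controls and 9.0, 8.86 and 8.87 in the NSL1 arrays. It rose by 0.18 (SE 0.05, adjusted p = 0.0488), a call lost without C (adjusted p = 0.0802), without D (0.348) and after centring each array on its median (0.0796). Of the 10 genes of its MIS12 and NDC80 kinetochore complexes, Nsl1 was the only one called higher, and Spc24 was the only one called lower, by 0.30 (SE 0.06, adjusted p = 0.0101, but 0.167 without the letter as a block and 0.0667 with no limit on low values).

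Changes of the other NSL complex genes were at most 0.23 in size. Of the 10 NSL complex genes 2 were called higher and 2 lower, and over all measured genes 17.0% were called higher and 21.2% lower. Kat8, the acetyltransferase itself, read 9.53, 9.45 and 9.47 in the controls and 9.61, 9.55 and 9.49 in the NSL1 arrays, a difference of 0.07 (SE 0.05, 95% confidence interval -0.05 to 0.18, adjusted p = 0.325). Differences of Hcfc1 (0.01), Kansl2 (0.05), Phf20l1 (0.07), Wdr5 (-0.10) and Kansl3 (0.15) did not pass the test either. The chromatin reader gene Phf20 rose by 0.23 and the glycosyltransferase gene Ogt by 0.21, while Mcrs1 fell by 0.18. Without D these 3 were no longer called, with adjusted p of 0.103 for Phf20, 0.136 for Ogt and 0.268 for Mcrs1.

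Of the 4 MSL complex genes 2 were called higher and 1 lower, beside 17.0% higher and 21.2% lower over all measured genes. Msl1, its scaffold, read 9.21, 9.16 and 9.21 in the controls and 9.53, 9.57 and 9.71 in the NSL1 arrays. It rose by 0.41 (SE 0.06, adjusted p = 0.00357), and the groups did not overlap. Msl2, its ubiquitin ligase, rose by 0.29 (SE 0.06, adjusted p = 0.0157, and 0.0663 without D). The X-linked chromodomain gene Msl3 went from 9.05, 9.10 and 8.92 to 8.71, 8.57 and 8.47, and fell by 0.44 (SE 0.06, adjusted p = 0.00305). Among 10 genes of related acetyltransferases and of deacetylases of histone H4, 3 (30.0%) were called higher and 3 (30.0%) lower, to be read against the same shares. The largest of these changes were in deacetylase genes: Hdac4 rose by 0.84 (SE 0.06, adjusted p = 0.00111) and Sirt2, whose product removes acetyl groups from lysine 16, fell by 0.78 (SE 0.09, adjusted p = 0.00267). Sirt2 read 9.65, 9.61 and 9.65 in the controls and 9.12, 8.83 and 8.64 in the NSL1 arrays.

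Across the transcriptome 2215 genes were called higher and 2752 lower, which is 38.2% of the measured genes. By direction this is 17.0% higher and 21.2% lower, and every list count below is to be read against these shares. Most changes were small: 221 of the higher genes and 425 of the lower genes changed by at least 1.5-fold, and 34 and 40 by at least 2-fold. Of the 4967 genes called, 4966 had the same sign in all 3 letters, and in 3381 the NSL1 arrays and control arrays did not overlap. Both counts follow in large part from the call, which asks for changes that agree between letters, and are no separate support. Overlap also compares arrays across letters, and C arrays are on another scale. The median size of the change over called genes was 0.28 in C, 0.34 in D and 0.39 in E. Without the letter as a block, 484 genes were called higher and 712 lower, all of them called in the same direction with it. Without D, 1090 were called higher and 1635 lower. Of the higher genes 58 passed the limit of 6 only through their NSL1 arrays, and of the lower genes 57 only through their controls. Such genes had to differ to be measured, and each one named is marked. Of genes named below, Ddit4, Eomes, Irf9, Lamtor5, Lin28a, Mrps17, Mrps36, Ndufa1, Phgdh, Smpd1 and Xlr were not called without the letter as a block. Ift22, Tctn3 and Pmvk, also lost there, are marked where they are named. With no limit on low values Arpc1a, Decr1, Gria3 and Irf9 were not called. Sqle, the only sterol synthesis gene called higher, was called in neither setting. The other genes named only from small counts were not followed singly through these settings.

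The genes with the largest falls have varied known functions. Tbc1d7, the third subunit of the TSC complex that restrains the growth kinase mTORC1, read 8.16, 8.33 and 8.30 in the controls and 6.76, 6.85 and 6.61 in the NSL1 arrays. It fell by 1.52 (SE 0.07, limma adjusted p = 0.00109), which left 34.8% of the control level. Plgrkt, a membrane receptor for plasminogen, went from 8.48, 8.11 and 8.13 to 7.02, 6.66 and 6.50 and fell by 1.51 (SE 0.06, adjusted p = 0.000819). The control C array was the highest of its group in Plgrkt, and the groups of both genes lay well apart. Arpin, an inhibitor of the actin-nucleating Arp2/3 complex, fell by 1.5 from control values of 9.16, 8.53 and 8.57. Obox6, a homeobox gene of a family expressed in oocytes, fell by 1.45, and the X-linked zinc finger gene Zc4h2 fell by 1.41. Pcbd1, whose product regenerates the cofactor tetrahydrobiopterin, fell by 1.38 from 8.88, 8.89 and 8.69 to 7.78, 7.31 and 7.25. Ano9, of the anoctamin family of membrane proteins, fell by 1.35 and Siae, a sialic acid esterase, by 1.33. A pair of genes of innate immunity and cell death followed: Sting1, the adaptor of cytosolic DNA sensing, fell by 1.31 and Casp8, the initiator caspase of death receptors, by 1.27. Casp8 read 8.99, 9.06 and 8.89 in the controls and 7.99, 7.55 and 7.61 in the NSL1 arrays. Plekhb1, a protein with a pleckstrin homology domain, and the cytochrome P450 gene Cyp4f16 each fell by 1.26. These genes were picked among those with the same sign in all 3 letters, so that agreement was fixed by the choice. Obox6 belongs to a family of similar genes, as do Serpinb9b and Xlr named further on, and whether the probes tell the copies apart was not tested.

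The largest rises included genes normally prominent in other cell types. Gpnmb, which encodes a glycoprotein of lysosomes and melanosomes, read 8.19, 7.90 and 7.85 in the controls and 9.79, 9.27 and 9.23 in the NSL1 arrays. It rose by 1.45 (SE 0.06, adjusted p = 0.00109), or 2.73-fold. Lcp1, the actin-bundling plastin of blood cells, went from 6.34, 6.26 and 6.30 to 7.58, 7.88 and 7.68 and rose by 1.41 (SE 0.08, adjusted p = 0.0011). Control values of Lcp1 lay close together and just above the limit of 6, and all NSL1 arrays stood well above them. Cd80, a costimulatory ligand of antigen-presenting cells, rose by 1.25 from 8.12, 8.11 and 8.16 to 9.35, 9.38 and 9.40, and its NSL1 arrays were nearly equal. Ano3, an anoctamin, rose by 1.43, but with a control mean of 5.48 it passed the limit only through its NSL1 arrays. Cyyr1 rose by 1.41 and the homeobox gene Nkx2-9 by 1.31. Ms4a10, of a family of membrane-spanning proteins, rose by 1.29, and Serpinb9b, an inhibitor of serine proteases, rose by 1.23. Plk2, a kinase induced by p53, rose by 1.23, the sodium channel subunit gene Scn3b by 1.22, the epidermal transcription factor gene Zfp750 by 1.18 and the X-linked actin-binding gene Pof1b by 1.17. Pof1b (control mean 5.89) also passed the limit only through its NSL1 arrays. The plot of levels by letter shows the arrays of these 24 genes.

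**Figure D1:**
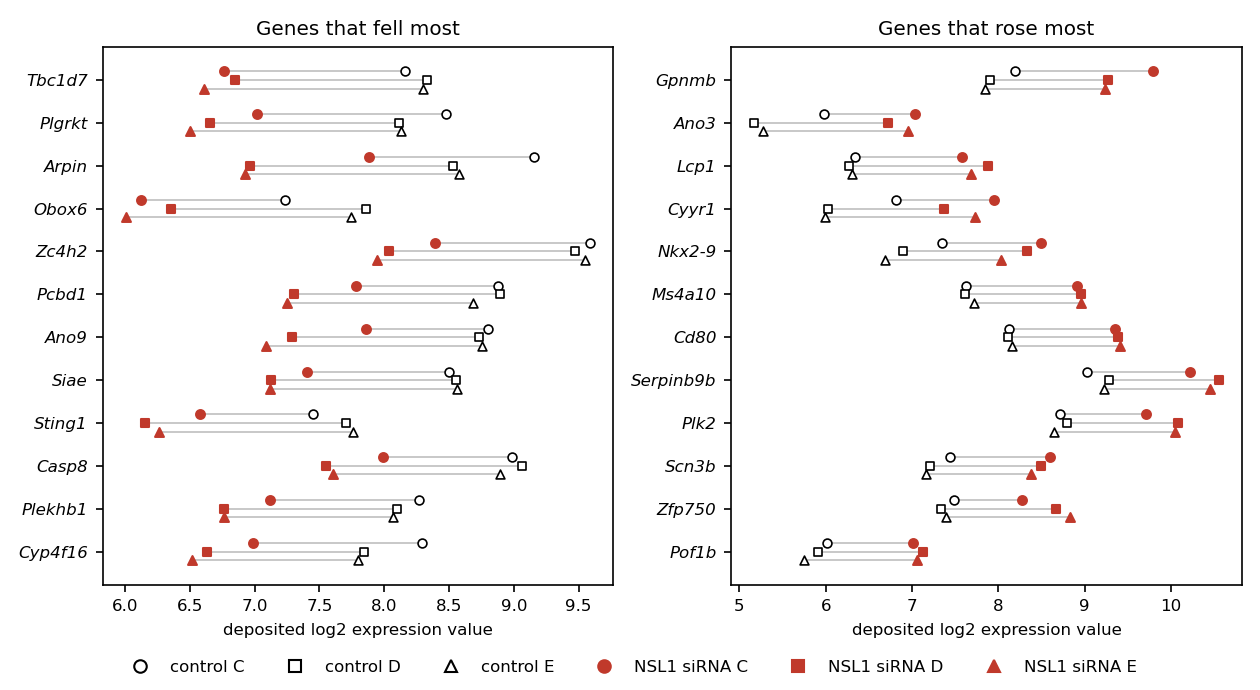
Deposited log2 expression value (horizontal axis) of the 12 genes that fell most (left) and the 12 that rose most (right), 1 point per array, with the control (open) and NSL1 (red) array of a letter joined by a line. The NSL1 and control arrays of each gene do not overlap, and C arrays of both groups often stand above D and E, as in Arpin (control C at 9.16, D and E at 8.53 and 8.57).

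Genes of the primary cilium, the single sensory projection whose parts are carried by intraflagellar transport (IFT) trains and whose membrane proteins are sorted by the BBSome, fell together. Of 33 measured genes of IFT, its motors and the BBSome, 27 were called lower and 2 higher, and the median change was -0.40 against -0.01 over all measured genes. Of 25 genes of the ciliary transition zone and basal body, 15 were called lower and none higher at limma's adjusted p, with 1 gene above its control at an unadjusted p under 0.05, and the median was -0.32. Both lists hold Ift27. The medians by letter C, D and E were -0.38, -0.40 and -0.44 for the transport list, and -0.27, -0.32 and -0.38 for the transition zone list. Without the letter as a block 11 and 7 genes of these lists were called lower.

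Ttc26, also known as IFT56, read 8.57, 8.50 and 8.38 in the controls and 7.60, 7.36 and 7.05 in the NSL1 arrays, and fell by 1.15 (SE 0.08, adjusted p = 0.0011). The BBSome genes Bbs9 and Bbs5 fell by 0.97 and 0.92. Bbs9 went from 9.55, 9.46 and 9.49 to 8.89, 8.36 and 8.33, and Bbs5 from 7.67, 7.45 and 7.50 to 6.58, 6.75 and 6.55. Wdr19, a subunit of the IFT-A train that returns from the tip, fell by 0.97 from 7.87, 7.46 and 7.27 to 6.88, 6.30 and 6.50. Ift22, a small GTPase of the IFT-B train, fell by 0.95 from 8.91, 8.45 and 8.70 to 8.21, 7.50 and 7.49, and was not called without the letter as a block (adjusted p = 0.0528). The genes called higher were Wdr35 (0.55), which encodes another IFT-A subunit, and Ift20 (0.21), which encodes a subunit with a role at the Golgi; they and the other genes named from counts of 5 or fewer were picked after their values were seen. Ift80, Bbs7 and Ift57 were near no change, at -0.01, -0.03 and -0.05.

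At the transition zone, the gate at the base of the cilium, the X-linked gene Rpgr read 8.69, 8.30 and 8.14 in the controls and 7.61, 7.40 and 7.28 in the NSL1 arrays. It fell by 0.95 (SE 0.06, adjusted p = 0.0011). Tmem67, the membrane protein meckelin, fell by 0.84 from 7.79, 7.67 and 7.81 to 7.07, 6.79 and 6.88. The tectonic genes Tctn2 and Tctn3 fell by 0.82 and 0.69, and Tmem237 by 0.64. Tctn3 was not called without the letter as a block (adjusted p = 0.0528). Members of the same gate that did not pass the test included Tctn1 (-0.03), B9d2 (-0.01) and Cc2d2a (0.17).

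Since these genes moved together, the 250 bases before the start are shown for the 5 ciliary genes with the largest falls among those with exactly 1 promoter in the table (Rpgr, with a larger fall than Bbs5, had several), from RefSeq on GRCm38.p6 and all on the plus strand. Capitals mark matches on either strand to 3 motifs. One is CCAAT, the box bound by the factor NF-Y. Another is GTTGCC, a stretch of the X-box bound by RFX factors, which are regulators of ciliary genes. The last is ACTACA, which opens the motif of ZNF143 and THAP11, partners of HCFC1. The intervals are chr6:38381274-38381523 for Ttc26, chr9:22475465-22475714 for Bbs9, chr5:65199446-65199695 for Wdr19, chr5:136907900-136908149 for Ift22 and chr2:69646921-69647170 for Bbs5.
Ttc26: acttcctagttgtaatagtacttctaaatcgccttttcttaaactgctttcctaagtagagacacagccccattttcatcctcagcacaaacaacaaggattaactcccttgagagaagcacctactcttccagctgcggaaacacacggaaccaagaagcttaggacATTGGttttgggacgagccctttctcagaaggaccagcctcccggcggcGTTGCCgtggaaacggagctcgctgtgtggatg
Bbs9: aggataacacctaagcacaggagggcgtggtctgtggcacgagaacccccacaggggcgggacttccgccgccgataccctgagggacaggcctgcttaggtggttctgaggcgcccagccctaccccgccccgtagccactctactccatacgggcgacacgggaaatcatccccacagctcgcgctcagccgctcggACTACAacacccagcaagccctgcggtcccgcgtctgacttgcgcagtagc
Wdr19: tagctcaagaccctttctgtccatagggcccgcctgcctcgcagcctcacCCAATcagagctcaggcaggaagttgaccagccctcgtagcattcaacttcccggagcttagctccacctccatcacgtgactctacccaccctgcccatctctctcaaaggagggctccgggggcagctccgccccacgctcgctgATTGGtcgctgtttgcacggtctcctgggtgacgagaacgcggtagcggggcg
Ift22: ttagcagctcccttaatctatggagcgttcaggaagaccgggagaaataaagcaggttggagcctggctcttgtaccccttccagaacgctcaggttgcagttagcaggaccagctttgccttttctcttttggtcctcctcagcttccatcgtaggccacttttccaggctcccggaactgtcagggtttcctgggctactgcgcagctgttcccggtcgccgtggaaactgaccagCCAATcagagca
Bbs5: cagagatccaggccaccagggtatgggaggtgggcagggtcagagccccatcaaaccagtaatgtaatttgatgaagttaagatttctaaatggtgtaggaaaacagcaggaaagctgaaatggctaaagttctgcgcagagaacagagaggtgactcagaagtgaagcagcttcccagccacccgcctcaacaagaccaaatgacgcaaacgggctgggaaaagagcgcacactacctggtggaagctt

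The promoter of Ttc26 held 1 CCAAT and 1 GTTGCC match, and the promoter of Wdr19 held 2 CCAAT matches. Ift22 held 1 CCAAT match and Bbs9 1 ACTACA match, and none of these letters occurred in the window of Bbs5. A CCAAT match lay in 59.4% of the 32 lowered ciliary genes with exactly 1 promoter in the table, against 36.8% of the 8302 measured genes with 1 promoter. GTTGCC lay in 21.9% of them against 10.2%, and ACTACA in 15.6% against 9.42%. Other motifs searched had lower shares in them: GGGCGG lay in 34.4% against 60.4%, CACGTG in 6.25% against 8.41% and TATAAA in 3.12% against 6.56%. So did GCATGCGC (3.12% against 4.57%) and CCGGAAG (12.5% against 13.6%), while AAGATGG stood at 6.25% against 4.36%. With 32 promoters the small shares rest on very few genes each, and small differences such as that of CCGGAAG give no direction. Ciliary genes that were not lowered were not compared, so the shares do not tell lowered genes from ciliary genes at large. The median GC content of these 32 promoters was 55.8%, against 60.4% in genes that were not called. A match is a description of the letters and shows no binding.

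Genes of mitochondrial protein synthesis made up the longest list and fell in most part. Of 77 proteins of the mitochondrial ribosome, which translates the subunits of the respiratory chain encoded in mitochondrial DNA, 42 were called lower and 4 higher, with a median change of -0.21. Mrps21, of its small subunit, read 10.15, 10.13 and 10.26 in the controls and 9.48, 9.43 and 9.35 in the NSL1 arrays, and fell by 0.76 (SE 0.06, adjusted p = 0.00121). Mrpl11, of its large subunit, fell by 0.70 from 10.75, 10.87 and 10.85 to 10.15, 10.15 and 10.07. Mrps17 fell by 0.73 and Mrps18c by 0.64. Mrps36, which is in the list by its symbol and whose place in the ribosome was not checked, fell by 0.62. The groups of Mrps21 and Mrpl11 lay apart, and control C of Mrps17 (8.27) stood well above its controls D and E (7.54 and 7.43). The 4 that rose were Mrpl32 (0.32), Mrpl47 (0.31), Mrps6 (0.19) and Mrpl17 (0.17). Without the letter as a block 17 of the 77 were called lower. Of 16 mitochondrial tRNA synthetases 8 were called lower and 2 higher, led by Hars2, which fell by 0.46 (SE 0.05, adjusted p = 0.00192). Of 18 cytosolic tRNA synthetases 7 were called lower and none higher by limma's adjusted p (1 higher at an unadjusted p under 0.05), and Wars fell by 0.57 (SE 0.06, adjusted p = 0.00213).

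**Figure D2:**
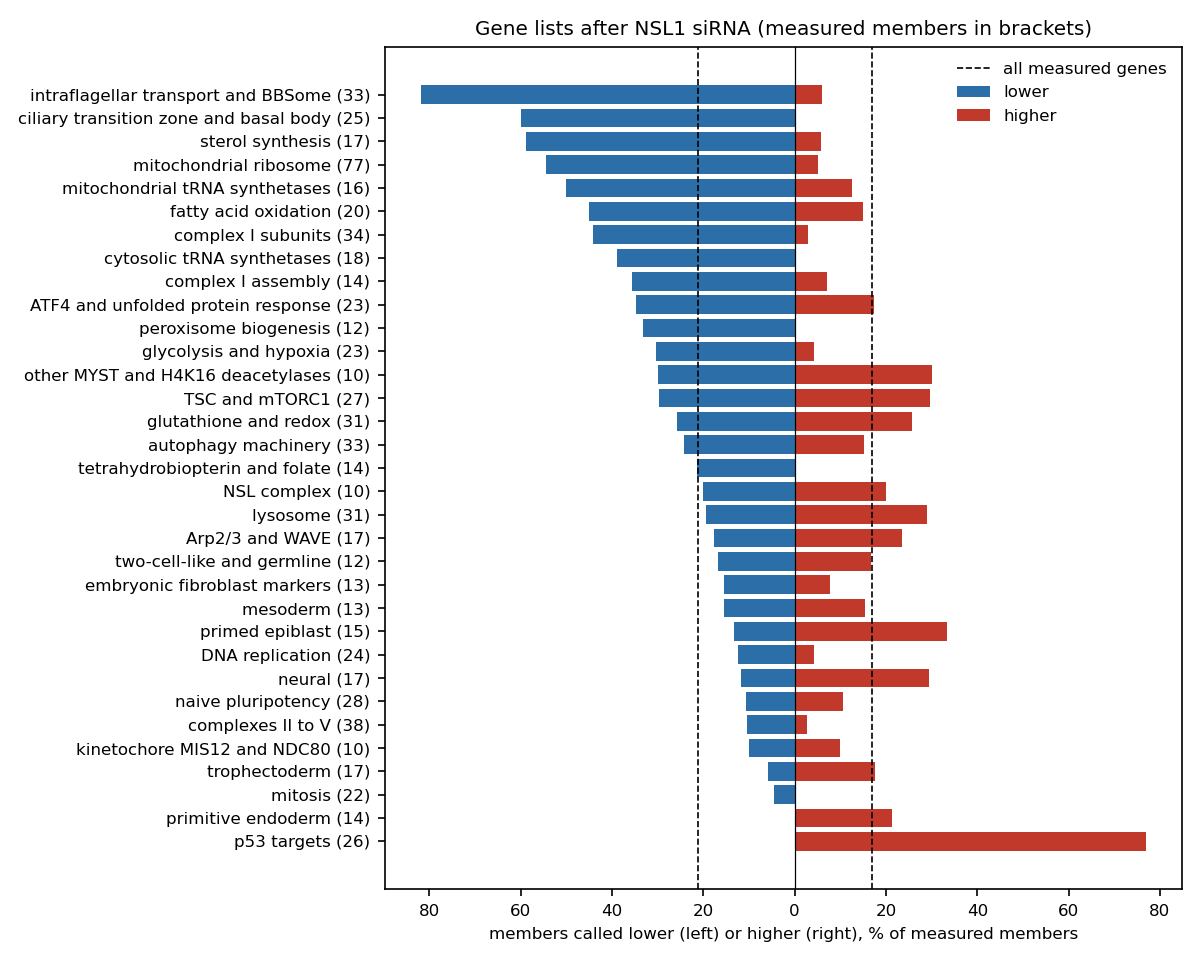
Share of the measured members of each gene list that limma called lower (blue, to the left) or higher (red, to the right) in NSL1 arrays, in percent of measured members, with dashed lines at the shares over all measured genes (21.2% and 17.0%), for lists with 10 or more measured members. The IFT and BBSome list has the highest share called lower (81.8%) of the lists drawn, and the p53 target list the highest share called higher (76.9%).

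In the respiratory chain, 15 of 34 subunits of complex I, the NADH dehydrogenase, were called lower and 1 higher, with a median of -0.17. Ndufa9 read 11.17, 11.20 and 11.20 in the controls and 10.55, 10.61 and 10.45 in the NSL1 arrays, and fell by 0.65 (SE 0.06, adjusted p = 0.00122). Ndufv1, which holds the flavin site, fell by 0.59, and the X-linked Ndufa1 by 0.47. The count of lower subunits was 7 without D, 7 without E, 5 with no limit on low values and 3 without the letter as a block. Of 14 complex I assembly factors 5 (35.7%) were called lower and 1 (7.14%) higher, beside 21.2% and 17.0% over all measured genes. Ecsit fell by 0.73 (SE 0.07, adjusted p = 0.00153). Of 38 subunits of complexes II to V, 4 were called lower and 1 higher, and their median was -0.06. Among 20 genes of fatty acid oxidation 9 were called lower and 3 higher. Cpt2, which reforms acyl-CoA inside mitochondria, read 9.15, 9.36 and 9.23 in the controls and 8.38, 8.12 and 7.98 in the NSL1 arrays, and fell by 1.09 (SE 0.10, adjusted p = 0.00155). Decr1 and Eci2, auxiliary enzymes for unsaturated fatty acids, each fell by 0.69, and Decr1 (NSL1 mean 5.81) passed the limit only through its controls. The 3 that rose were Cpt1a (0.30), the entry enzyme, Eci1 (0.27) and Etfa (0.19). Of 12 peroxisome biogenesis genes 4 (33.3%) were called lower and none higher by limma's adjusted or unadjusted p. Pex11a, which acts in peroxisome division, fell by 0.91 (SE 0.07, adjusted p = 0.00119).

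Of 17 genes of sterol synthesis 10 were called lower and 1 higher, with a median of -0.32. Pmvk, the phosphomevalonate kinase, read 8.17, 7.77 and 7.75 in the controls and 7.58, 7.13 and 7.07 in the NSL1 arrays, and fell by 0.64 (SE 0.05, adjusted p = 0.00111). Lss, the lanosterol synthase, fell by 0.53, Mvd by 0.47 and Nsdhl by 0.46. The gene that rose was Sqle (0.21), the squalene epoxidase. Values of other early enzymes were 0.03 for Hmgcs1, 0.20 for Idi1 and 0.02 for Fdft1, and none of these was called. In the control of sterol synthesis, Insig2, which retains the SREBP escort protein in the endoplasmic reticulum, went from 9.17, 8.93 and 9.06 to 8.48, 8.00 and 7.90. It fell by 0.93 (SE 0.09, adjusted p = 0.0017), the largest change among 8 genes of that list. Without the letter as a block 6 synthesis genes were called lower, and Pmvk was not among those called (adjusted p = 0.0809).

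**Figure D3:**
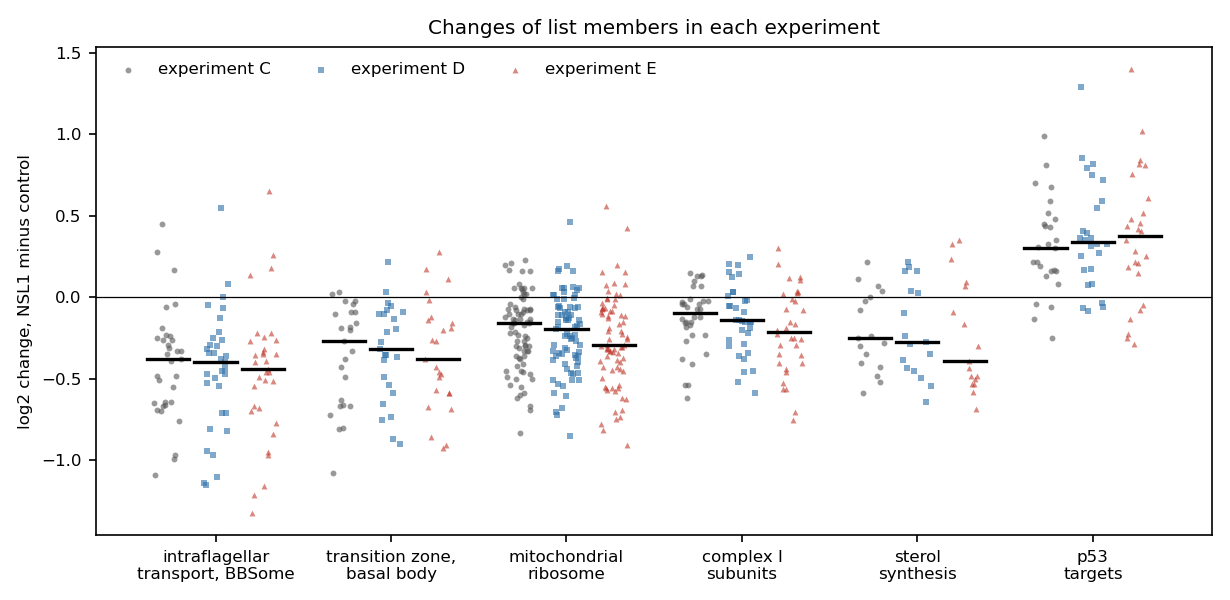
Change of each measured member of 6 gene lists (log2 of NSL1 minus log2 of control, vertical axis), 1 point per gene, in the experiments C (grey), D (blue) and E (red), with a bar at the median of each letter. The medians of the 2 ciliary lists, the mitochondrial ribosome, complex I subunits and sterol synthesis lie below 0 in all 3 letters and that of the p53 targets lies above 0.

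The nutrient-sensing arm around mTORC1 changed in both directions, with 8 of 27 genes higher, 8 lower and a median of 0.00. Besides Tbc1d7, the lowered genes included Lamtor5, a part of the Ragulator that tethers mTORC1 to lysosomes, which fell by 0.68 (SE 0.06, adjusted p = 0.0014). Higher were Rragd (0.61), a Rag GTPase, Flcn (0.56), the Rag regulator folliculin, and Ddit4 (0.55), an inhibitor of mTORC1. Rragd read 9.33, 9.54 and 9.38 in the controls and 9.93, 10.07 and 10.07 in the NSL1 arrays. The partners of Tbc1d7 in the TSC complex did not pass the test, at 0.00 for Tsc1 and 0.02 for Tsc2.

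Among 33 genes of the autophagy machinery 8 were called lower (24.2%) and 5 higher (15.2%), near the shares over all measured genes. The X-linked protease gene Atg4a, whose product trims LC3 family proteins, read 8.62, 8.52 and 8.49 in the controls and 7.44, 7.12 and 7.32 in the NSL1 arrays. It fell by 1.25 (SE 0.06, adjusted p = 0.0011). Atg7, the activating enzyme of the conjugation system, fell by 0.74 and Pik3c3, the lipid kinase VPS34, by 0.55. Of 31 lysosomal genes 9 (29.0%) were called higher and 6 (19.4%) lower. Next to the rise of Gpnmb, the hydrolase genes Ctsz (cathepsin Z), Lipa (acid lipase) and Smpd1 (acid sphingomyelinase) fell by 1.14, 0.99 and 0.76, and Lipa (NSL1 mean 5.86) passed the limit only through its controls. Ctsz went from 9.23, 9.49 and 9.68 to 8.49, 8.31 and 8.2, with its smallest fall in C. Of 31 genes of glutathione and redox metabolism 8 (25.8%) were called higher and 8 (25.8%) lower, beside 17.0% and 21.2% over all measured genes. Gstm5 fell by 1.11 (SE 0.11, adjusted p = 0.00165), having passed the limit only through its controls (NSL1 mean 5.89).

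Of 26 measured targets of p53, the damage-responsive transcription factor, 20 were called higher and none lower by limma's adjusted p (2 lower at an unadjusted p under 0.05), with a median change of 0.34. After Plk2, which went from 8.72, 8.79 and 8.65 to 9.71, 10.08 and 10.05, the largest rises were in the apoptosome gene Apaf1 (0.82), the antiproliferative gene Btg2 (0.82), Pidd1 (0.74) and Perp (0.73). Btg2 read 9.43, 9.57 and 9.50 in the controls and 10.24, 10.39 and 10.32 in the NSL1 arrays. The 6 that did not pass the test were Xpc (-0.19), Pmaip1 (-0.12), Rrm2b (-0.08), Dram1 (-0.05), Ddb2 (-0.05) and Tigar (0.03). Without the letter as a block 10 targets were called higher, and with no limit on low values 13. This rise is already part of earlier results of these arrays and is no independent support of them.

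Few genes of DNA replication and mitosis were called, while stress lists held calls in both directions. Of 24 genes of DNA replication 1 (4.17%) was called higher and 3 (12.5%) lower, both below the shares over all measured genes (17.0% and 21.2%). Gins1, of the replicative helicase, fell by 0.46 (SE 0.06, adjusted p = 0.004). Of 22 mitosis genes 1 (4.55%) was called lower, also below that share, and their median was 0.01. None of them was called higher by limma's adjusted p (2 higher at an unadjusted p under 0.05). In the list of ATF4 targets and the unfolded protein response 4 of 23 (17.4%) rose and 8 (34.8%) fell. Atf3 of that list, a stress-induced factor, rose by 0.81 (SE 0.05, adjusted p = 0.0011). Phgdh, the first enzyme of serine synthesis, fell by 0.52 (SE 0.06, adjusted p = 0.00268). Of 23 glycolysis and hypoxia genes 7 (30.4%) were called lower and 1 (4.35%) higher, beside 21.2% and 17.0% over all measured genes. Among 8 measured genes of the interferon and double-stranded RNA response, the kinase gene Eif2ak2 fell by 0.65 (SE 0.07, adjusted p = 0.00226) and Irf9 rose by 0.29 (SE 0.05, adjusted p = 0.00695, and 0.0682 without D).

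Pluripotency genes were near their control levels. Of 28 naive pluripotency genes 3 were called higher and 3 lower, with a median of -0.01. The largest of these changes were in Lin28a, an inhibitor of let-7 processing, which rose by 0.36 (SE 0.06, adjusted p = 0.00564), and in Nr0b1, an X-linked nuclear receptor gene, which rose by 0.34 (SE 0.05, adjusted p = 0.00431). Of 15 primed epiblast genes 5 were called higher and 2 lower. Lef1, a Wnt effector, read 7.31, 7.30 and 7.34 in the controls and 7.73, 7.90 and 7.96 in the NSL1 arrays, and rose by 0.55 (SE 0.06, adjusted p = 0.00207). In the trophectoderm list 3 of 17 rose, with Ascl2 at 0.56 and Eomes at 0.52, and 1 fell. These short lists are to be read against the 17.0% higher and 21.2% lower over all measured genes. Of 14 primitive endoderm genes 3 rose and none was called lower by limma's adjusted or unadjusted p, led by Dab2 at 0.49. Of 13 mesoderm genes 2 rose and 2 fell. Of 17 neural genes 5 rose and 2 fell. The X-linked genes Gria3, a glutamate receptor subunit, and Nap1l2, a histone chaperone of neurons, rose by 1.14 and 0.87, and the imprinted gene Nnat rose by 0.71. Gria3 read 5.99, 5.51 and 5.28 in the controls and 6.51, 6.83 and 6.87 in the NSL1 arrays, with its smallest rise in C. Gria3 (control mean 5.59) and Nap1l2 (5.89) passed the limit only through their NSL1 arrays, and Gria3 was not called with no limit on low values (adjusted p = 0.0577). In the list of genes of the early cleavage embryo and germline 2 of 12 rose and 2 fell, and Dazl, an RNA-binding protein of germ cells, rose by 0.69 (SE 0.09, adjusted p = 0.00368).

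Among 17 genes of the actin-nucleating Arp2/3 complex and its WAVE regulators, 4 (23.5%) rose and 3 (17.6%) fell. These shares were near those over all measured genes (17.0% and 21.2%). Beside the fall of Arpin, the complex subunit gene Arpc1a fell by 0.40 (SE 0.07, adjusted p = 0.00686) and the WAVE gene Wasf1 rose by 0.61 (SE 0.08, adjusted p = 0.00299). Of 14 genes of tetrahydrobiopterin and folate metabolism 3 (21.4%) were called lower, near the 21.2% over all measured genes. None was called higher by limma's adjusted p (1 higher at an unadjusted p under 0.05), and in that list Pcbd1 moved most. Of 13 embryonic fibroblast genes 1 was called higher and 2 lower.

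On the X chromosome of this female line genes were called in both directions. Of 418 X-linked genes 85 (20.3%) were called higher and 98 (23.4%) lower, with a median change of 0.01. Of 12548 autosomal genes 2119 (16.9%) were higher and 2653 (21.1%) lower, with a median of -0.01. The X-linked genes with the largest falls after Zc4h2 and Atg4a were Cd99l2, a membrane glycoprotein gene (-1.08), and Was, an activator of Arp2/3 (-0.99). Was read 8.29, 8.32 and 8.31 in the controls and 7.53, 7.33 and 7.08 in the NSL1 arrays. After Pof1b and Gria3, the largest X-linked rises were in Ripply1, a transcriptional repressor active in somite formation (1.08), and the orphan receptor gene Gpr50 (1.05).

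The letters before the start of lowered and raised genes differed in base composition and in several motifs. Of the 13008 genes 10332 matched the promoter table and 8302 had exactly 1 promoter in it. The median GC content of the 250 bases was 58.0% in 1818 lowered genes, 60.4% in 5109 genes not called and 62.4% in 1375 raised genes. ACTACA was found in 12.3% of lowered, 8.93% of uncalled and 7.42% of raised genes, and in 16.4% of the 292 that fell and 5.07% of the 138 that rose by at least 1.5-fold. When genes were split into 4 equal classes by control level, the shares in the lowest class were 12.4% of 251 lowered and 5.7% of 1543 uncalled genes, and in the highest class 14.0% of 365 and 10.5% of 1414. In the class next to the highest, lowered (12.4%) and uncalled genes (12%) were nearly equal. CCAAT was found in 40.2%, 36.0% and 35.1% of lowered, uncalled and raised genes, CCGGAAG, read by ETS factors, in 16.4%, 13.6% and 10.1%, and the GC box GGGCGG in 56.5%, 60.3% and 66.1%. In all 9 motifs were searched on both strands, and no motif contains another. The others were TATAAA (6.66%, 6.62% and 6.25%), GCATGCGC (5.23%, 4.38% and 4.36%), GTTGCC (11.1%, 9.96% and 9.89%), AAGATGG (4.95%, 4.25% and 4.0%) and CACGTG (7.15%, 8.55% and 9.53%). ACTACA was singled out after the shares were seen, and the shares were not tested.

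How far the response was shared with loss of MOF was examined with the MOF knockdown in the same line. It has 3 MOF arrays and 3 controls of its own in experiments 1, 2 and 3, so no array is shared with the NSL1 comparison. Cells of experiments 1 and 2 were treated again with 400 pmol for a further 24 h, whereas experiment 3 had a single round as for NSL1. After MOF siRNA 3.72% of the 13008 genes were called higher and 7.3% lower. Kat8 fell by 1.22 there, against a difference of 0.07 after NSL1 siRNA. Of the genes called higher after MOF siRNA 69.0% were also called higher after NSL1 siRNA (334 genes, 15.1% of those raised by NSL1 siRNA). Of those called lower 69.7% were also called lower (661 genes, 24.0% of those lowered by NSL1 siRNA). A further 32 genes were called higher after NSL1 and lower after MOF siRNA, and 3 the other way. Over the measured genes the changes had a Pearson r of 0.575 and a Spearman rho of 0.515, as a description across genes, which are not independent replicates.

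**Figure D4:**
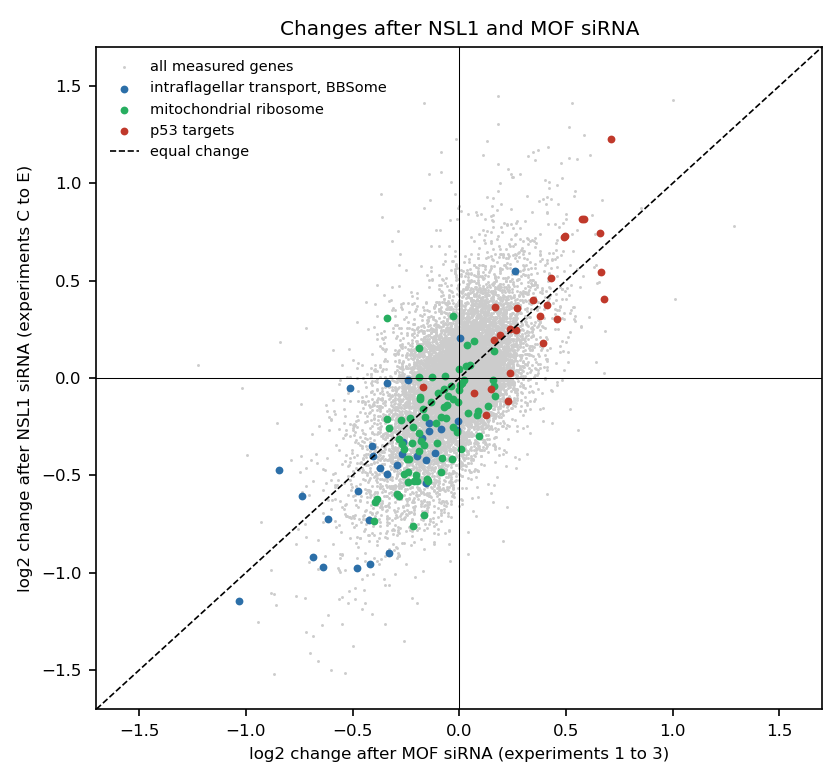
Mean log2 change after NSL1 siRNA (vertical axis, experiments C to E) against the change after MOF siRNA (horizontal axis, experiments 1 to 3), 1 point per measured gene, with IFT and BBSome genes in blue, mitochondrial ribosome genes in green and p53 targets in red. Of the 77 mitochondrial ribosome genes 56 lie below the dashed line of equal change, as do 52.5% of all measured genes, and Ttc26 lies at the lower left (-1.15 after NSL1 and -1.03 after MOF siRNA).

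The lists can be set side by side for both knockdowns. The IFT and BBSome list had 19 of 33 genes called lower after MOF siRNA, with a median of -0.33 beside -0.40 after NSL1 siRNA, and the test of the difference placed 4 genes further down after NSL1 siRNA and 2 further up. Ttc26 fell by 1.03 after MOF siRNA, and its difference of -0.12 between knockdowns did not pass (adjusted p = 0.616). For the transition zone list 6 of 25 were lower after MOF siRNA, with a median of -0.13, and 6 lay further down after NSL1 siRNA. The p53 targets stood at 18 of 26 called higher after MOF siRNA, with a median of 0.36 beside 0.34. The mitochondrial ribosome had 14 of 77 genes lower after MOF siRNA (median -0.13), and 11 genes lay further down after NSL1 siRNA and 2 further up. Of 17 sterol synthesis genes 2 were lower after MOF siRNA (median -0.06), and 6 lay further down after NSL1 siRNA. Of 34 complex I subunits 1 was lower after MOF siRNA, and the difference passed the test in 3 that lay further down and 1 further up. Over all measured genes the difference was called below MOF in 6.32% and above MOF in 5.93%. The counts of differences in these lists are to be read against these shares, and those of the complex I subunits are near them.

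The difference between the knockdowns was called above MOF in 5.93% and below MOF in 6.32% of the measured genes. Among genes lower in both, the fall was called larger after NSL1 siRNA in 112 and smaller in 9, and among those higher in both the rise was called larger in 44 and smaller in 7. The genes lower in both with the largest falls after NSL1 siRNA were Tbc1d7 (-0.87 after MOF siRNA), Plgrkt (-0.54), Arpin (-0.60), Zc4h2 (-0.70), Pcbd1 (-0.50) and Siae (-0.68). Those higher in both were Ano3 (1.00 after MOF siRNA), Cyyr1 (0.53), Ms4a10 (0.51), Cd80 (0.58), Plk2 (0.71) and Zfp750 (0.42). The largest differences upward, after Lcp1 (-0.17 after MOF siRNA, difference 1.58, SE 0.125, adjusted p = 0.00302), were in Nudt10 (1.31), Kat8 (1.29), Gpnmb (1.27), the immune receptor gene Btla (1.25, with a control mean of 5.99, below the limit) and Serpinb9b (1.24). The largest downward were in Ano9 (-1.09), Pakap (-1.04), Xlr (-1.0), Plgrkt (-0.98), the peroxisomal membrane gene Pxmp4 (-0.96) and Cd1d1, which presents lipids to T cells (-0.95). Serpinb9b stood at -0.01 after MOF siRNA (adjusted p = 0.924), while it went from 9.03, 9.29 and 9.22 to 10.22, 10.55 and 10.45 in the NSL1 experiment. With the single-round MOF experiment alone, no gene passed the adjusted test of the difference with limma in either direction, while 3027 genes had an unadjusted p under 0.05. Without D the difference was called above MOF in 52 genes and below in 49, and without E in 113 and 129. The siRNA rounds, the experiments and the normalization sets differ between these knockdowns, and their part in the differences was not tested.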

How the data were processed

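RNA of siRNA-treated mouse ES cells was hybridised to Affymetrix mouse gene arrays, and the authors deposited 1 table of log2 expression values for 35556 probesets and 27 arrays. The submitters' processing notes name RMA (robust multi-array averaging, with background correction and quantile normalization) and Affymetrix Expression Console. Tool versions and genome build are not given in the sources used here. No 2 arrays were identical. The number of arrays limits the precision.

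Symbols came from the platform's annotation, updated through RefSeq (GRCm38.p6): 21797 probesets had 1 symbol, 1613 several and 12146 none, and 21698 matched RefSeq. With limma 3.58.1 in R 4.3.3, log2 values of the 6 arrays were fitted on the letter and on NSL1 siRNA (2 residual degrees of freedom, 3.9 prior degrees of freedom) over 15205 probesets with a mean log2 of at least 6. P-values were adjusted by Benjamini-Hochberg over these and called under 0.05. Pairing by letter comes from the labels, which number the letters as separate experiments. Deviations from the group means correlated at 0.83 (C), 0.791 (D) and 0.492 (E) between arrays of a letter, but NSL1 E correlated more with control D (0.608), and NSL1 D with control E at 0.424, so the check does not tell D and E apart and the pairing rests on the labels. The difference from MOF siRNA was an interaction fitted over 12 arrays blocked by experiment, with 4 residual degrees of freedom. The fit was also run on simulated arrays with independent noise and far fewer changed probesets than were called here. That run does not bear on the calls in these data. Promoters came from RefSeq.

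Named were all NSL and MSL complex genes, the 12 largest falls and 12 largest rises called with 1 sign in all letters, up to 4 X-linked genes each way, up to 5 called members of each list and up to 6 genes each way for the comparison with MOF. Genes of small counts and uncalled members were named after their values were seen. The arrays, members and gene lists were chosen with earlier results of these data known. Alternatives were other blocks, arrays, scalings, limits on low values, spreads and leaving out each letter.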

Additional observations from a re-analysis of the deposited data

How the results depend on the processing

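Averaging the probesets of a gene turned Kansl1 from a fall of 0.24 to 0.133 (limma adjusted p = 0.176). It changed the sign of 2 of the 4967 called genes, neither of them then called, and no called gene fitted changed sign under the other alternatives. Without the letter as a block (no replicate block), 484 genes were called higher and 712 lower, and no gene above or below MOF, with 291 at an unadjusted p under 0.05 by limma. The members called were then 10 for the p53 targets, 6 for sterol synthesis, 3 for complex I subunits, 17 for the mitochondrial ribosome, 11 for the IFT and BBSome list and 7 for the transition zone list. With no limit on low values 736 genes were called higher, 1231 lower, 13 p53 targets higher and 5 complex I subunits lower. With the single-round MOF experiment alone, 0 genes lay above and 0 below MOF, with 3027 at an unadjusted p under 0.05 by limma. Leaving out 1 letter at a time gave 1090 to 2453 genes higher, 1635 to 2989 lower, 52 to 913 above MOF, 49 to 964 below MOF and 7 to 16 complex I subunits lower, and the other 5 list counts stayed within 1.5 times the value reported. With the other alternatives (13 or all 27 arrays, median centring, quantile normalization, a limit of 7, a variance trend and, for lists, averaged probesets), these counts stayed within 1.5 times the values reported where they were run. Averaged probesets for single genes, and the settings of the list counts other than averaged probesets, were chosen after seeing the data. Of 182 named genes that were called, 102 kept the call without the block, 124 with no limit on low values, and 174, 142 and 165 without C, D and E. With 1 residual degree of freedom, fits without a letter lean on the spread shared across probesets. The cause of these changes was not tested. Dim probesets limit what can be seen of genes with a mean under 6.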
